A study of Mus musculus with 40 samples.

Results

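The regions described here are short stretches of the mouse genome in which many CpGs lay close together and nearly all of them were methylated in liver. The genome was divided into bins of 1000 bp, and bins were selected on the measured methylation itself: 10 or more listed CpG cytosines and a mean of 80% or more over cytosines and mice. This gave 487 of the 10229 bins with 10 or more listed cytosines (4.76%), among 82746 bins with any listed cytosine. They held 6092 of 399868 cytosines (1.52%), with 10 to 37 per bin (median 11). A stretch of chromosome 17 was left out by the rule. The level of these bins is therefore a description of what was chosen and is not tested.

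Methylation was measured by reduced representation bisulfite sequencing (RRBS), in which MspI cuts the DNA at CCGG and bisulfite converts unmethylated cytosines. Whole liver DNA was taken at 9 weeks from 40 males of the C57BL/6J strain, and the 4 groups held 10 mice each. Dams received a low fat (LF) or a high fat (HF) diet, and their sons were fed LF or HF after weaning: LF dam and LF offspring, LF dam and HF offspring, HF dam and LF offspring, HF dam and HF offspring. All animals were of 1 strain, and the sons of each breeding cage were divided at random between both diets at weaning. The labels do not name the dam, litter or cage of each mouse, so p-values measure the spread between mice, some of which may be littermates.

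In mammals, methyl groups are placed on the cytosine of CpG pairs by DNA methyltransferases. Most isolated CpGs of the genome are methylated, whereas the CpG-rich promoters called CpG islands usually are not. Dense methylated CpGs are known from the bodies of transcribed genes, from repeats, from the silent alleles of imprinted genes and from promoters of germline genes that are switched off in somatic tissue.

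Sequences of the mm9 reference (plus strand, 5′ to 3′) show what such regions look like, with the CpGs listed in the data in capitals. The first is the most densely listed window of the bin with most cytosines, in a coding exon of Zscan2, a zinc finger gene, where 24 cytosines averaged 88.6%.
Zscan2, chr7:88020652-88020939: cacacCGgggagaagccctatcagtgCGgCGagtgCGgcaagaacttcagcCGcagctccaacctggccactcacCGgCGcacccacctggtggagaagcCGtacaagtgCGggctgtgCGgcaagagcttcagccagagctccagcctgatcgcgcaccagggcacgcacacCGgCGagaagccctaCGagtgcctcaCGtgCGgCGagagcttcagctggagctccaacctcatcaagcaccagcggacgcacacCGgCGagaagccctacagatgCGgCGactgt
The next comes from the bin with the highest mean, in an exon of Arl15 annotated as not coding, which encodes a small GTPase, where 12 cytosines averaged 98.0%.
Arl15, chr13:114945078-114945155: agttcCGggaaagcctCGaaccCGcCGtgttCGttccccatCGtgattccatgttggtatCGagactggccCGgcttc
The promoter region of Sfi1, inside the gene model of Drg1, held the largest number of promoter cytosines, 30 with a mean of 82.2%.
Sfi1, chr11:3093346-3093636: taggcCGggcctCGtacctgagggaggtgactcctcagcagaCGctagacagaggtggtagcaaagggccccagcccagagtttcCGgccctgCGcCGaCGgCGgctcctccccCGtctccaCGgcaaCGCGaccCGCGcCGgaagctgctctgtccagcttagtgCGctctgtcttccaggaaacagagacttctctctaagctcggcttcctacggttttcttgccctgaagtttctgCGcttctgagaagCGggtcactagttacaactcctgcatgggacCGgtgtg
The bin at Tmem120a, which encodes a membrane protein of the nuclear envelope, had the smallest p-value in a diet comparison, and 9 cytosines of this window averaged 94.9%.
Tmem120a, chr5:136212338-136212617: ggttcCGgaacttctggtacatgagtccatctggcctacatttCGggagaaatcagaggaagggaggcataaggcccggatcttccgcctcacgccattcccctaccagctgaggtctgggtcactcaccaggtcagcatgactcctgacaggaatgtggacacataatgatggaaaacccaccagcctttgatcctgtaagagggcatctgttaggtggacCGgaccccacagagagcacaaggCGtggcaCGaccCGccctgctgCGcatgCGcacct
Sequences of 2 germline promoters, shown because both genes are used in germ cells, were chosen after their values were seen. In Slc25a31, an ADP/ATP carrier of testis, 12 cytosines averaged 92.9%.
Slc25a31, chr3:40512770-40512972: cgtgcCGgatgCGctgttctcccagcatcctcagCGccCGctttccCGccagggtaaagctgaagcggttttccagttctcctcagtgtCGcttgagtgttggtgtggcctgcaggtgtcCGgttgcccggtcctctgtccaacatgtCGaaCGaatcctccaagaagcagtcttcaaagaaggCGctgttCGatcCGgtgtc
In Sohlh2, a transcription factor of early germ cells, 15 cytosines averaged 94.8%.
Sohlh2, chr3:54986255-54986522: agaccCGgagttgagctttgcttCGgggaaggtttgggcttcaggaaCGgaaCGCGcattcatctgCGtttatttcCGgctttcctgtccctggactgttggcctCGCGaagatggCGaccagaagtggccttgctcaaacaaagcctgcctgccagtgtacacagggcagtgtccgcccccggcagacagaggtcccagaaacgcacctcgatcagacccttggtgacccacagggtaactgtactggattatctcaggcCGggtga

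The bins with 10 or more listed cytosines were mostly at the ends of the scale. Of the 10229, 9272 had a mean below 20%, 470 lay from 20% to under 80%, and the 487 methylated bins had means from 80% to 98.0% (median 92.7%). A mean of 90% or more was found in 325 of the 487 and of 95% or more in 140. After Arl15 (98.0%) the highest were Zbtb17 (97.9%), which encodes the Myc partner Miz-1, and an intergenic bin 9568 bp from Fbxl20 (97.8%). The bins with most cytosines were those of Zscan2 (37 cytosines, 89.6%), Mid1 (33), an intron of Rbfox3, a splicing factor of neurons (32, 87.0%), and Sfi1 (30). Just inside the threshold were an intergenic bin 7969 bp from Scn8a (80%), the bin in Mid1 (80.2%) and 1 in Slc12a9 (80.3%). Just outside were bins in Itga9 (79.8%) and Bsn (79.9%) and an intergenic bin 130414 bp from Lrrc30 (80% after rounding).

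**Figure D1:**
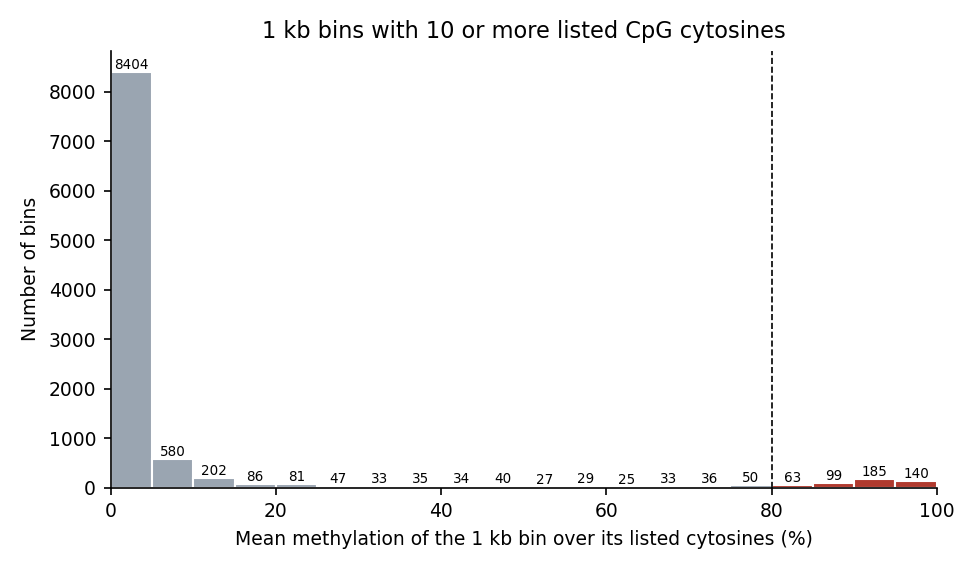
Number of 1 kb bins (vertical axis) by mean methylation over listed cytosines and mice (horizontal axis, %), for bins with 10 or more listed cytosines. The red bars right of the dashed line are the 487 methylated bins, and the tallest bar, 8404 bins, lies below 5%.

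Reads at the listed cytosines summed to between 2646846 and 21608251 per mouse. At the cytosines of the methylated bins the median coverage of a value was 21 reads, 43.3% of the values rested on fewer than 20 reads, and 8.12% of the values were missing. Of the reads there, 90.5% were methylated, and 33.7% of the values were exactly 100%. The 2 mice with the fewest reads lacked 47.8% (HF dam, HF offspring, replicate 9) and 41.3% (LF dam, HF offspring, replicate 10) of these values. The promoters of Foxa2 and Hnf4a, hepatocyte transcription factors, averaged 2.47% and 25.1%, while that of Coro1a, a leukocyte gene, averaged 5.6%. The defining promoters of hepatocytes such as Alb had fewer than 3 listed cytosines, so the share of blood cells in the livers could not be read from these markers.

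Most of the methylated bins lay in the bodies of genes. By the annotation that held most of their cytosines, 260 (53.4%) were coding exons, 79 (16.2%) intergenic, 75 (15.4%) introns, 63 (12.9%) promoters, taken as 1000 bp before to 500 bp after a transcript start, and 10 (2.05%) other exons. The intergenic count includes 3 bins on unplaced contigs, which were not annotated. Of the bins below 20%, 79.2% were promoters and 5.4% coding exons, and of the bins between, 28.5% and 32.1%. These shares compare bins that were separated by their methylation, and no test was made. Sparse bins with a mean of 80% or more and 3 to 9 listed cytosines (n = 15121) were placed differently, with 19.5% in coding exons and 36.1% intergenic.

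**Figure D2:**
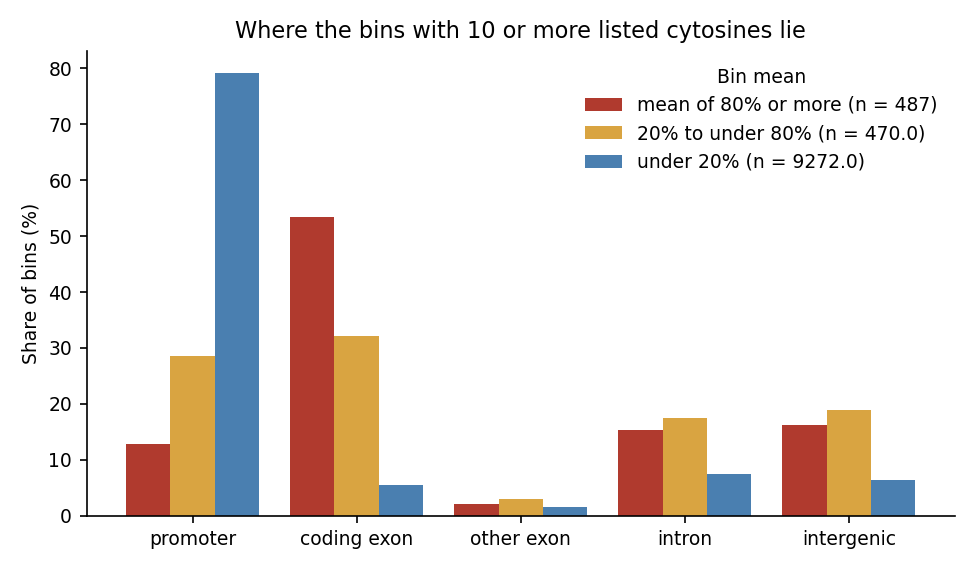
Share of bins (vertical axis, %) in each annotation class (horizontal axis), for bins with 10 or more listed cytosines in 3 classes of mean methylation. Coding exons held 53.4% of the methylated bins, and promoters 79.2% of the bins below 20%.

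In sequence, the methylated bins were less rich in CpG than the unmethylated ones. The median was 29 CpGs per bin (middle 50% from 23 to 38) against 67 in bins below 20% and 35 in the bins between. The observed to expected CpG ratio had a median of 0.413, against 0.744 and 0.460, and the GC content 54.8%, against 60.8% and 56.2%. A GC content of 50% or more together with a ratio of 0.6 or more, a usual definition of a CpG island, was met by 37 of 484 methylated bins (7.64%), by 77.2% of the bins below 20% and by 23.6% of those between. The motif CCGG, which reads the same on both strands, had a median of 5 per methylated bin, and 100% of the bins of each class held it. Of the 260 bins in coding exons, 123 (47.3%) had most of their span in an exon of 1000 bp or more and 90 (34.6%) in the last exon of a transcript. These shares were 59.3% and 46.9% for coding exon bins below 20%, and 50.3% and 43.0% for those between.

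Genes that held methylated bins usually had an unmethylated promoter. Only promoters of coding transcripts were counted here, so bins at the starts of other transcripts were kept. Bins without a cytosine in a coding transcript's promoter lay in 349 coding genes, of which 264 had 3 or more listed promoter cytosines. The promoter mean was below 10% in 223 of these (84.5%), from 10% to under 80% in 32, and 80% or more in 9, with a median of 1.91%, while the bins inside the same genes had a median of 93.0%. Over all 10970 coding genes with 3 or more promoter cytosines, 88.4% had a promoter below 10% and the median was 1.72%. The host genes were thus close to all genes in this respect. In Acvr2b, an activin receptor, the promoter averaged 0.747% and the bin 81.2%. In Abcb4, the phospholipid transporter of bile, these were 1.18% and 95.5%, and in Acox3, a peroxisomal oxidase, 1.90% and 95.5%. In Acacb, the acetyl-CoA carboxylase at mitochondria, they were 13.6% and 89.4%. The 9 genes with a promoter of 80% or more included Fat1 (98.2%), a large cadherin, and Bfsp2 (93.2%), a filament protein of the lens.

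**Figure D3:**
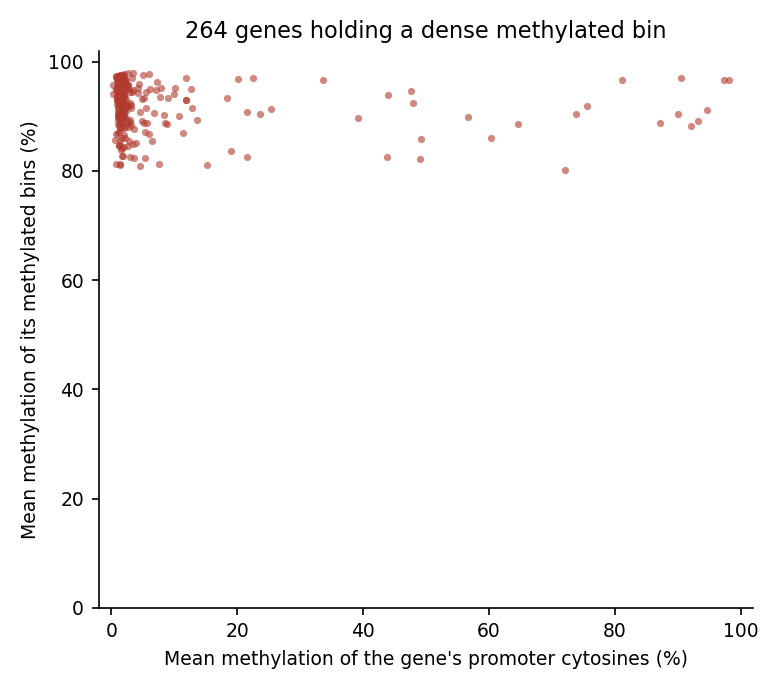
Mean methylation of promoter cytosines (horizontal axis, %) against the mean of all methylated bins in the same gene (vertical axis, %). There is 1 point per gene (n = 264). For Zfp865 the bins include 1 at its promoter. The bins are above 80% because they were chosen so, and 223 of the promoters lie below 10%.

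Several genes held more than 1 methylated bin. Gm20388 was counted 7 times because its model spans chr8:122434741-126869622 over other genes, among them Irf8 (97.0%), a transcription factor of myeloid and B cells, Car5a (94.4%, at the start of a transcript that is not protein coding), a mitochondrial carbonic anhydrase, and Zfpm1 (86.7%), a cofactor of GATA factors. After it came 4 genes with 3 bins each. These were Zfp865 (91.7% to 97.7%), a zinc finger gene, Cux2 (84.0% to 95%), a homeobox transcription factor, Foxp4 (83.6% to 95.6%), a forkhead factor, and Kif26a (88.2% to 94.8%), an atypical kinesin. The bins of Zfp865 formed the longest run of adjacent methylated bins, 3 in a row at chr7:4981001-4984000 with 50 listed cytosines. Another 9 runs were 2 bins long, including Grin3b and its neighbour ORF61 (93.3% and 94.0%) and both bins of Col8a1 (85.8% and 87.3%), a collagen of basement membranes.

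The bins beside the methylated bins were mostly methylated as well. Of 974 flanking positions, 201 held a listed cytosine, and 170 of those bins (84.6%) had a mean of 80% or more, against 48.2% of all bins with a listed cytosine. In 7 cases the neighbour was below 20%. For 4 of them it was itself a bin with 10 or more cytosines. The steepest was at Pofut2, a protein O-fucosyltransferase gene, where a bin of 13 cytosines at 93.5% (chr10:76723001-76724000) lay beside a bin of 11 cytosines at 0.924%. At Tmem186 a bin at 89.4% lay beside 32 cytosines at 1.06%, at Slc12a9 80.3% beside 2.64%, and at Lingo3 82.4% beside 4.55%.

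Promoters of coding transcripts were rare among the methylated bins. Only 30 of the 487 (6.16%) held a cytosine of such a promoter, against 7366 of the 9272 bins below 20% (79.4%). The bin at Sfi1 (chr11:3093001-3094000) held 30 promoter cytosines and averaged 82.2%. Its coverage was 427 reads per cytosine, against a median of 20.5 for methylated bins, and copies of its sequence elsewhere were not examined. The next in number of promoter cytosines were Dmrtb1, a DM domain factor of germ cells, with 20 (83.3%), Tle2, a Groucho corepressor, with 19 (90.8%), 1700067K01Rik with 19 (81.3%), Pabpc6, of the poly(A) binding protein family, with 18 (90.1%) and Bcl2l10, of the Bcl-2 family, with 17 (93.3%). Others of the 30 were Pbp2 (94.3%), Tuba3b (96.8%), a tubulin of testis, Krt10 (93.1%), a keratin of the epidermis, and Mbd3 (94.2%), a subunit of the NuRD complex.

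Gene lists placed the methylated bins further. Of 30 germline genes, 17 had 3 or more promoter cytosines, with a median of 91.6%, and 13 of those 17 averaged 80% or more, against 262 of the 10970 coding genes (2.39%). The sparser promoters of this list included Hsf5 (98.1%), Dpep3 (97.3%) and Spo11 (93.4%), which makes the breaks of meiotic recombination, while Hspa1l (5.07%) and Smc1b (8.75%) were low. Only 3 bins with 10 or more cytosines touched this list, and 2 were methylated. These were the promoters of Slc25a31 (chr3:40512001-40513000, 14 cytosines, 93.6%) and Sohlh2 (chr3:54986001-54987000, 15 cytosines, 94.8%) printed above. Zinc finger genes named Zfp with a number held 15 methylated bins among 156 (9.62%, against 4.76% of all bins with 10 or more cytosines), of which 14 lay in coding exons and 1 in a promoter. They ranged from 80.6% in Zfp239 to 97.7% in Zfp334. Collagen genes held 4 of 17, in Col6a3 (89.4%), Col8a1 and Col25a1 (83.1%). None of 46 bins at Hox genes, 20 at imprinted genes, 8 at clustered protocadherins or 11 at housekeeping genes was methylated, and none of the lone bin with a hepatocyte marker. No test was made of these counts.

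Most cytosines of these bins were highly methylated, which the choice of bins by their mean largely sets. Of the 6092 cytosines, 4366 (71.7%) had a mean of 90% or more, 1202 (19.7%) from 80% to under 90%, 497 (8.16%) from 50% to under 80% and 27 (0.443%) under 50%. In 269 bins every listed cytosine had a mean of 80% or more. In the other 218 the lowest was under 80%, and in 25 of these it was under 50%. Both strands were listed at 712 CpGs, and their means differed by a median of 1.05 percentage points and by over 20 points at 2 CpGs.

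In 2 bins a single listed cytosine read as largely unmethylated in all 40 mice. An intergenic bin 12170 bp from Atad2b (chr12:5063001-5064000) had 10 cytosines of 96.1% or more and 1, at position 5063116 of the plus strand, of 0.637%, with 0% to 9.70% in single mice on a median of 54 reads. The nearest listed cytosine, 30 bp away, averaged 97.5%. This bin holds 24 CCGG sites, against the median of 5. In an intron of Eftud1 (chr7:89920001-89921000), a GTPase gene of ribosome assembly, 25 cytosines were at 82.3% or more and that at position 89920471 of the minus strand at 1.19% (0% to 13.8% in single mice, median 55.5 reads). The closest listed cytosine, 13 bp away, averaged 97.6%. Both windows, chosen after their values were seen, are given with listed CpGs in capitals. The cytosines with the low values lie at base 99 of the first and opposite base 122 of the second, counted from the 5′ end. Each lies in a CCGG motif, the site that MspI cuts. Whether this position bears on the low values was not tested.
Atad2b, chr12:5063018-5063214: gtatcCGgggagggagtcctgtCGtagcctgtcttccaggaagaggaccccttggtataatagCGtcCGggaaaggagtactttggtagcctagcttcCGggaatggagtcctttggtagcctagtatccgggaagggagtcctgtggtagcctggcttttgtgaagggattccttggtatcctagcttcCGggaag
Eftud1, chr7:89920350-89920520: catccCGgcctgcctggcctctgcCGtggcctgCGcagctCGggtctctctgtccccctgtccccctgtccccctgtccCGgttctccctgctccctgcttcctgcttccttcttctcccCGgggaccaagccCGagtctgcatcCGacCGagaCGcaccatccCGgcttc
The widest range of cytosine means after these was in Sulf2, a sulfatase of heparan sulfate, where 1 of 10 cytosines averaged 23.6% and the others 88.5% or more. In the Sfi1 bin the cytosines at 3093486 and 3093512 of the plus strand averaged 22.2% and 22.6% on medians of 18.5 and 18 reads, whereas the opposite cytosine of the first averaged 94.2% on 395.5 reads.

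The spread of the methylated bins between mice was set against the error of counting reads. Within groups, after each cytosine was centred on its own mean so that missing cytosines did not shift a mouse, the SD between mice had a median of 2.39 percentage points. Counting of the reads alone gives a median of 1.90 points if each cytosine is sampled independently. Neighbouring cytosines can share reads, so this counting error may be too small. The ratio of the SD between mice to that of counting had a median of 1.25, against 1.10 in bins below 20% and 1.65 in the bins between. In 14 of the 487 bins (2.87%) the SD was more than 2 times the counting error, against 22.8% of the 470 bins between and 1.11% of those below 20%. When only mice with a value at 50% or more of the cytosines of a bin were kept, 18 bins were above this limit, 10 of them in common.

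**Figure D4:**
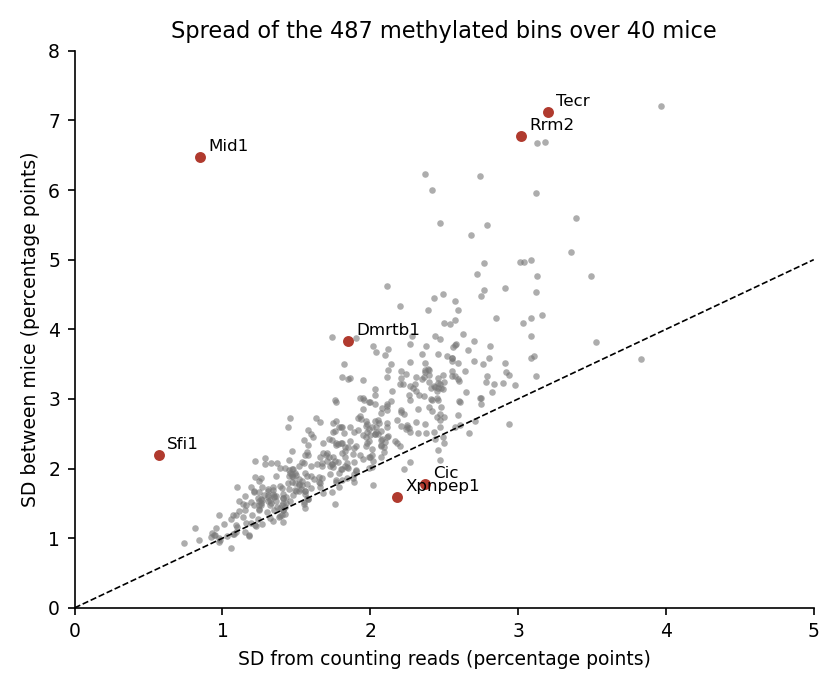
SD between mice within groups (vertical axis) against the SD expected from counting reads (horizontal axis), both in percentage points, 1 point per methylated bin (n = 487). Points on the dashed line vary as much as read counting gives when cytosines are taken as independent. Mid1 and Sfi1 lie farthest above it relative to their counting error.

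Mid1, a ubiquitin ligase of microtubules whose gene crosses the pseudoautosomal boundary in C57BL/6 mice, had the largest spread after subtraction of the counting variance. Its bin (chrX:166428001-166429000) held 33 cytosines in an exon annotated as not coding, with 135 reads per cytosine against a median of 20.5 for methylated bins. Animals born from LF fed dams ranged from 71.8% to 88.2% (median 83.1%) when fed LF and from 66.1% to 88.4% (median 82.6%) when fed HF. Animals born from HF fed dams ranged from 75.8% to 88.2% (median 78.2%) when fed LF and from 54.1% to 86.6% (median 79.1%) when fed HF. All 4 groups overlapped, and the SD between mice was 6.47 points where counting gives 0.848. The Sfi1 bin, with 427 reads per cytosine, was the other bin above 100 reads and had an SD of 2.19 against 0.568. Whether this depth bears on the spread was not tested. For Sfi1 the highest mouse of each group lay between 84.1% and 86.6%, and the lowest was 72.1%, in an animal born from an HF fed dam and fed HF.

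Among bins of ordinary depth, Tecr, the last enzyme of very long chain fatty acid elongation, had an SD of 7.12 points against 3.20, with mice from 56.0% to 92.5%. For Rrm2, a subunit of ribonucleotide reductase, the SD of 6.77 against 3.02 rested on few cytosines in some mice, since it was 2.54 against 1.91 over mice with 50% or more of the cytosines. The same was seen in Acacb, whose SD was 6.69 over all mice and 2.56 over those mice. Cic, a transcriptional repressor, and Xpnpep1, an aminopeptidase, varied least when the variance expected from counting was subtracted, with SDs of 1.78 and 1.59 points against 2.37 and 2.18. The third by this measure, 179324 bp from Arhgef26 (3.57 against 3.83 points), had 1 mouse at 50%, from 1 of its 11 cytosines.

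The level of the methylated bins was nearly the same in all animals. Averaged over the 487 bins, with each cytosine centred, the 40 mice ranged from 90.6% to 92.0% (median 91.5%). Animals born from LF fed dams ranged from 91.0% to 92.0% (median 91.5%) when fed LF and from 90.7% to 91.9% (median 91.5%) when fed HF. Animals born from HF fed dams ranged from 91.0% to 91.8% (median 91.6%) when fed LF and from 90.6% to 91.6% (median 91.2%) when fed HF. The groups overlapped, and the lowest animals of both HF fed groups were the 2 mice with the fewest reads. Without them the lowest values were 91.4% (LF dam, HF offspring) and 90.7% (HF dam, HF offspring).

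To test for differences with diet, the mean of each bin was compared between 10 and 10 mice by a two-sided Student's t-test, with the false discovery rate (FDR) computed over all bins with 3 or more listed cytosines. No methylated bin passed an FDR of 5% in any of the 4 comparisons. By the exact Wilcoxon rank-sum test none passed either, with 27 (5.54%), 17 (3.49%), 13 (2.67%) and 24 (4.93%) at an unadjusted p under 0.05 in the order given below, against 4.32%, 4.72%, 4.53% and 4.95% of all bins by that test. Since the comparisons share groups, their counts are not independent. The 95% interval of a difference reached a median of 2.15 to 2.40 percentage points to either side, depending on the comparison.

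The first comparison asked whether maternal diet altered the methylated bins in animals fed HF after weaning. At an unadjusted p under 0.05, 22 of 487 bins (4.52%) were lower and 3 (0.616%) higher in animals born from HF fed dams, against 2.96% and 1.57% of all 42334 bins tested. At an FDR of 5% there were 0 methylated bins and 0% of all bins, and the smallest FDR of a methylated bin was 0.976. Differences ranged from -7.54 to 3.71 points with a median of -0.254, against -0.109 over all bins. The smallest p by the t-test (0.00249) was in a coding exon of Zfp423, a zinc finger factor of fat cell precursors (chr8:90304001-90305000, 14 cytosines). Animals born from HF fed dams ranged from 87.0% to 94.6% (median 91.0%) and those born from LF fed dams from 91.2% to 97.7% (median 94.1%). The difference was -3.29 ± 0.936 points (SE, n = 10 and 10, permutation test p = 0.00294, FDR = 0.976 from the t-test). In 9 of 10 animals born from HF fed dams the value was below the median of the others, but the groups overlapped. In Plec, which encodes the cytoskeletal linker plectin (chr15:76008001-76009000), the values were 90% to 97.6% (median 96.5%) against 96.8% to 100% (median 98.2%). The difference was -2.63 ± 0.859 points (SE, permutation test p = 0.00138, FDR = 0.976), and the lowest mouse rested on 2 of 11 cytosines. It was -1.46 points (p = 0.0524) with a minimum of 20 reads and -1.45 points (p = 0.0105) with a quasi-binomial model of the summed reads.

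Maternal diet was also compared in animals fed LF after weaning. Here 18 bins (3.70%) were higher and 7 (1.44%) lower in animals born from HF fed dams at an unadjusted p under 0.05, against 3.32% and 2.06% of all bins. At an FDR of 5% there were again 0 methylated bins and 0% of all bins (smallest FDR 0.886). The median difference was 0.119 points, with a range from -4.23 to 4.30. In Fscn2, an actin bundling protein of the retina (chr11:120223001-120224000, 12 cytosines, 6 in its promoter), animals born from HF fed dams ranged from 87.4% to 92.4% (median 90.5%) and those born from LF fed dams from 80% to 89.6% (median 87.6%). The difference was 3.54 ± 1.14 points (SE, permutation test p = 0.00413, FDR = 0.886), and it was 1.13 points (p = 0.678) with a minimum of 20 reads. The intergenic bin 179324 bp from Arhgef26 (chr3:61962001-61963000) went the other way, with 83.7% to 92.7% (median 89.6%) against 89.1% to 93.9% (median 93.0%). The difference there was -3.27 ± 1.01 points (SE, permutation test p = 0.00351, FDR = 0.886), and it fell to -1.96 points (p = 0.0729) when cytosines were centred.

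The effect of the diet after weaning was then examined. In animals born from LF fed dams, 15 bins (3.08%) were higher and 6 (1.23%) lower when fed HF at an unadjusted p under 0.05, against 2.83% and 2.21% of all bins. At an FDR of 5% there were 0 methylated bins, against 0.00236% of all bins, which is 1 bin outside this set, and the smallest FDR of a methylated bin was 0.958. The median difference was 0.0774 points (range -4.32 to 5.04). In a coding exon of Clasrp, a regulator of splicing (chr7:20171001-20172000, 18 cytosines), HF fed animals ranged from 91.2% to 97.0% (median 94.4%, with no value in 1 mouse) and LF fed animals from 89.9% to 93.7% (median 91.5%). The difference was 2.46 ± 0.670 points (SE, exact permutation test p = 0.00196, FDR = 0.958). In an intron of Wwox, an oxidoreductase gene (chr8:117045001-117046000, 22 cytosines), the values were 92.2% to 97.0% (median 94.7%) against 89.2% to 94.6% (median 92.9%). The difference was 2.03 ± 0.658 points (SE, permutation test p = 0.00492, FDR = 0.958), 1.19 points (p = 0.104) with cytosines centred and 3.02 points (p = 0.121) with a minimum of 20 reads.

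In animals born from HF fed dams, 24 bins (4.93%) were lower and 4 (0.821%) higher when fed HF at an unadjusted p under 0.05, against 3.84% and 1.75% of all bins. At an FDR of 5% there were 0 methylated bins and 0% of all bins (smallest FDR 0.744). The median difference was -0.440 points (range -7.32 to 3.25), against -0.136 over all bins. The smallest p of the 4 comparisons was in the Tmem120a bin whose sequence is given above (chr5:136212001-136213000, 10 cytosines), which overlaps the start of an annotated transcript that is not protein coding. HF fed animals ranged from 88.5% to 94.4% (median 93.4%) and LF fed animals from 94.2% to 96.8% (median 95.2%). All 10 HF fed animals were below the median of the LF fed animals and 9 of 10 were below all of them. The difference was -2.46 ± 0.607 points (SE, 95% interval -3.73 to -1.18, permutation test p = 3.00e-05, FDR = 0.744). The t-test gave an unadjusted p of 7.57e-04, and because the bin was picked as the smallest among 487, neither p stands for a finding. In a coding exon of Atxn1, which encodes ataxin-1 (chr13:45662001-45663000, 16 cytosines), the values were 93.0% to 97.1% (median 94.2%) against 95.2% to 98.3% (median 96.6%). The difference was -1.88 ± 0.565 points (SE, permutation test p = 0.00484, FDR = 0.821), with -1.68 points (p = 0.194) at a minimum of 20 reads and -1.34 points (p = 0.0518) with the quasi-binomial model.

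**Figure D5:**
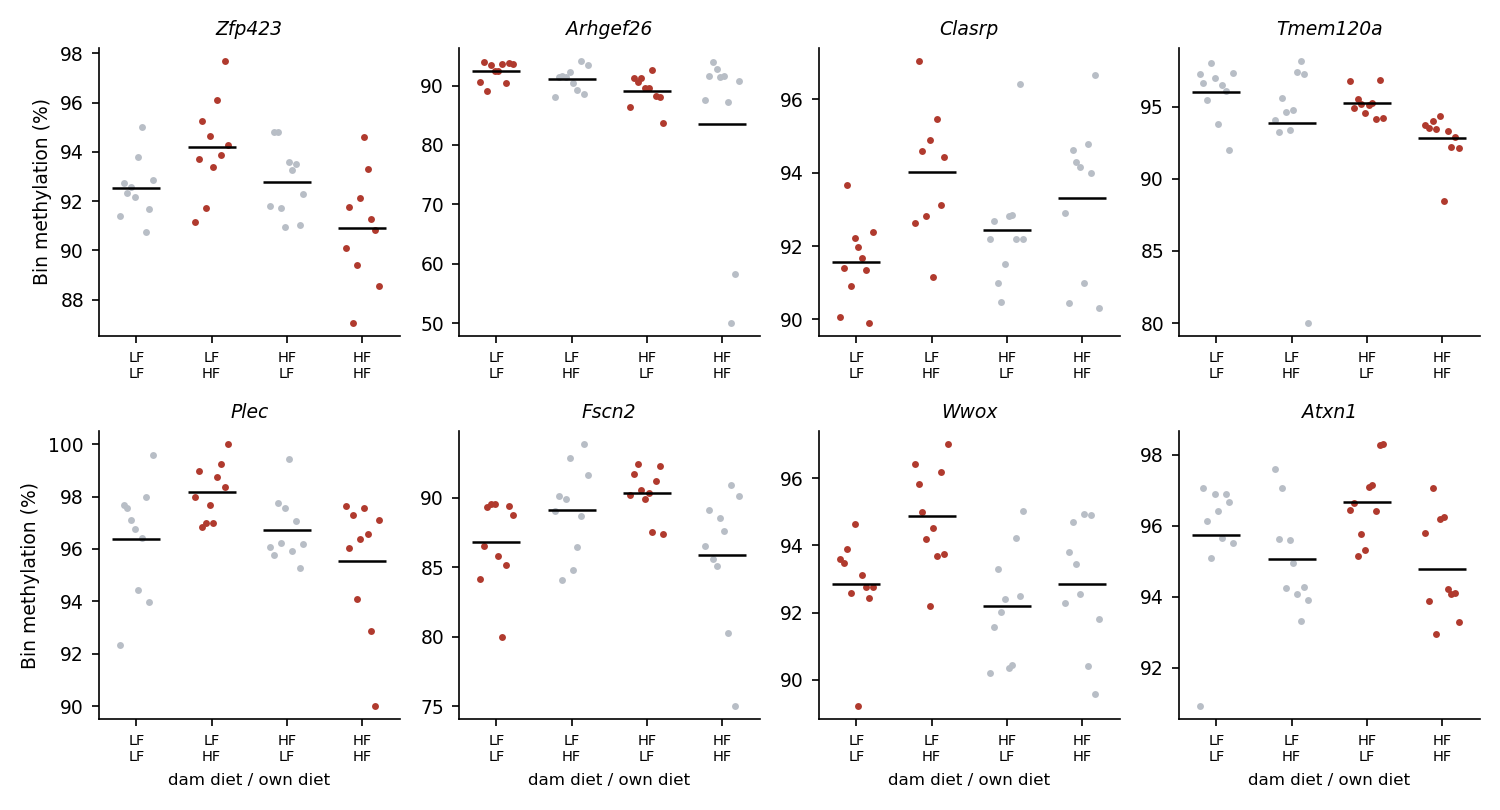
Percent methylation (vertical axis) of 8 methylated bins in each mouse by diet of the dam and own diet (horizontal axis), each panel named by the gene in or nearest to the bin. Red points are the groups of the comparison in which the bin was named and lines are group means. The vertical axes do not start at 0. For Tmem120a, 9 of 10 HF fed animals born from HF fed dams lie below all LF fed animals born from such dams.

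The same comparisons were made in bins with a mean of 80% or more but only 3 to 9 cytosines (n = 15121). For maternal diet in HF fed animals, 1.66% of these sparse bins were higher and 2.83% lower at an unadjusted p under 0.05, against 0.616% and 4.52% of the methylated dense bins. In LF fed animals these shares were 3.54% and 1.70%, against 3.70% and 1.44%. For the diet after weaning they were 2.66% and 2.32%, against 3.08% and 1.23%, among offspring of LF fed dams. Among offspring of HF fed dams they were 1.29% and 3.87%, against 0.821% and 4.93%. The differences between these sets of bins were not tested. With models over all 40 mice, 18 methylated bins (3.70%) had an unadjusted p under 0.05 for maternal diet, against 4.97% of all bins, 27 (5.54%) for the diet after weaning, against 5.74%, and 26 (5.34%) for the interaction, against 5.03%. None of these passed an FDR of 5%, while over all bins 0 passed for maternal diet, 5 for the diet after weaning and 0 for the interaction.

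Single cytosines were tested as well. Of the 4133 cytosines of methylated bins covered in 36 or more mice, 178 (4.31%) had an unadjusted p under 0.05 for maternal diet in HF fed animals, against 3.72% of all cytosines. In LF fed animals it was 197 (4.77%), against 3.93%. For the diet after weaning, 188 of 4131 (4.55%, against 3.92%) had such a p among offspring of LF fed dams, and 205 (4.96%, against 4.07%) among offspring of HF fed dams. None passed an FDR of 5%, with the smallest at 0.754.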

How the data were processed

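RRBS libraries of 40 livers were analysed. The authors digested DNA with MspI, selected fragments by size, treated them with bisulfite and aligned single-end reads with Bismark, to mm9 per the submitters' processing notes. They deposited a count of methylated reads and a count of all reads per CpG cytosine and mouse, not normalized, with totals missing below 10 reads. A deposited fraction was not used. There were 0 columns of unmapped mice. Percent methylation was computed from the counts with Python 3.11.15, NumPy 2.4.6 and SciPy 1.17.1. A value from few reads is coarse, and intervals cover counting or mouse-to-mouse error only, since reads need not be separate molecules. Genes came from the GENCODE vM1 annotation. Tests were the two-sided Student's t-test per bin or cytosine with Benjamini-Hochberg FDR, permutation tests with 100000 resamples (exact with fewer than 10 mice in a group), and linear models over 40 mice. A test needed 5 or more mice per group. The t-test per bin was also run on reads simulated without variation between mice, which does not show how it performs with such variation. Named bins were those with most cytosines, highest means, extreme spread or range, most promoter cytosines and smallest p. The regions, gene lists and named bins were chosen with earlier results of these data known. Alternatives are given in the closing section. Some items withheld for evaluation are not reported here.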

Additional observations from a re-analysis of the deposited data

Results flagged for a closer look

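In 20 groups of mice examined for a value far from the rest, 3 had 1, where chance gives about 1 in 20. In the average over the methylated bins, the lowest animal born from an LF fed dam and fed HF was at 90.7% and the next at 91.4%. This is the mouse with 41.3% of its values missing. In the Wwox bin the lowest animal born from an LF fed dam and fed LF was at 89.2%, with the next at 92.4%. In the Tmem120a bin the lowest animal born from an HF fed dam and fed HF was at 88.5%, with the next at 92.1%. For these 3 values no cause was tested.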

How the results depend on the processing

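The number of methylated bins depended on how cytosines were counted: it was 26 with 20 or more listed cytosines per bin, 202 with cytosines covered in 36 or more mice and 317 with both strands summed, against 487. It was 325 at a threshold of 90%, 573 at 70%, 488 with reads pooled and 499 with bins shifted by 500 bp. With 20 or more cytosines, bins at an unadjusted p under 0.05 numbered 1 for maternal diet in HF fed animals (3.85%, against 4.53% of all bins) and 2 in LF fed animals (7.69%, against 5.38%). For the diet after weaning they numbered 2 among offspring of LF fed dams (7.69%, against 5.04%) and 2 among offspring of HF fed dams (7.69%, against 5.59%). With both strands summed there were 15 (4.73%, against 5.41%) for maternal diet in LF fed animals and 11 (3.47%, against 5.06%) for the diet after weaning among offspring of LF fed dams. For maternal diet in LF fed animals there were 16 (3.29%, against 4.19%) with log10 reads as a covariate. The exact Wilcoxon test gave 13 (2.67%, against 4.53%) for the diet after weaning among offspring of LF fed dams, and a threshold of 90% gave 15 (4.62%, against 5.59%) among offspring of HF fed dams. Fewer bins entered with 20 or more cytosines, a threshold of 90% or both strands summed. For the covariate and the Wilcoxon test the cause was not tested. The other settings run for these counts kept them within 1.5 times, and 0 methylated bins passed an FDR of 5% under each setting run for the 4 bin comparisons. Without the 2 mice with the fewest reads the counts were 24 (4.93%), 25 (5.13%), 17 (3.49%) and 33 (6.78%), in the order of the report, against 4.82%, 5.38%, 4.97% and 5.79% of all bins.

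The differences of the 8 named bins kept their direction under every setting that gave a value. A minimum of 20 reads gave none for the bin near Arhgef26 and for Clasrp. In 7 cases the unadjusted p was no longer under 0.05: with a minimum of 20 reads for Plec, Fscn2, Wwox and Atxn1, with cytosines centred for Wwox and the bin near Arhgef26, and with the quasi-binomial model for Atxn1. The limit of 50% of the cytosines per mouse was chosen after seeing the data. Numbers of reads limit single values, as 43.3% rest on fewer than 20 reads. No paired analysis was possible because the replicate numbers follow accession order and the labels do not say that their mouse numbers mark a litter or cage.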
